A study of Mus musculus with 12 samples.

Results

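Cholesterol leaves a macrophage through the transporters ABCA1 and ABCG1, and the genes described here are those 2 transporter genes and 8 genes that act around them. They are Abca1, Abcg1, Apoe, Nr1h3, Mylip, Soat1, Lipa, Npc1, Npc2 and Ch25h. They were chosen by symbol from a table of FPKM (fragments scaled to transcript length and to the mapped fragments of a library) with 23863 genes, and all 10 were in the table and passed the filter on low values. RNA was sequenced from macrophages grown from the bone marrow of C57BL/6 mice aged 6 to 8 weeks, cultured for 7 days in medium conditioned by L929 cells, which supply the growth factor M-CSF. The cells came from wildtype mice (Wt in the titles) or from Mirc11-/- mice (Ako), which lack the gene cluster for miR-23a, miR-27a and miR-24-2. For 24 h they received either lipopolysaccharide (LPS, 100 ng/ml) with interferon gamma, termed M1, or IL-4 and IL-13 (20 ng/ml each), termed M2. For interferon gamma the protocol gives 50 ng/ml and the treatment field 10 ng/ml. Each of the 4 groups (wildtype M1, Mirc11-/- M1, wildtype M2, Mirc11-/- M2) holds 3 libraries, and there are no unstimulated macrophages.

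The title and the treatment field of the labels disagree on the polarization of 6 of the 12 libraries (Wt2261M1, Wt2262M1, Wt2261M2, Wt2262M2, Ako2273M1 and Ako2273M2), and groups were taken from the titles. Of wildtype, only Wt2260M1 and Wt2260M2 have agreeing labels, so fits to the libraries with agreeing labels have no wildtype replicate. Nos2, which makes nitric oxide in M1 cells, spanned 938 to 1630 FPKM over the 6 M1 titles and 0.802 to 2.26 FPKM over the 6 M2 titles. Mrc1, the mannose receptor of M2 cells, spanned 0.123 to 0.403 FPKM over the former and 230 to 301 FPKM over the latter, so the markers follow the titles. Of the deleted genes, Mir27a had a value in Wt2261M1 alone (101.5 FPKM), while Mir23a and Mir24-2 had 0 throughout, wildtype libraries included, so these rows do not check the genotype. The labels do not say that the libraries of a group came from separate animals. The p-values then measure only the spread between these samples, which may be technical. Wildtype and Mirc11-/- libraries carry different title numbers, so genotype and whatever the number marks cannot be told apart. The 8 macrophage markers summed to between 11541 and 13738 FPKM in every library, mostly Lyz2. Single markers differed between the states, with wildtype M1 and M2 means of 724 and 81.3 FPKM for Cd14 and 279 and 1246 FPKM for Cd68. Between 14366 and 14708 genes had a value above 0. The relative depth was 0.796 to 1.27 times that of Wt2260M1, with the absolute depth unknown.

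Macrophages take up cholesterol with lipoproteins and dying cells. Lysosomal acid lipase frees it from its esters, NPC2 and NPC1 pass it out of the lysosome, and it is then re-esterified for storage or handed to ABCA1, ABCG1 and apolipoprotein E for export. Oxysterols, which are oxidized forms of cholesterol, bind the liver X receptors (LXR), and these nuclear receptors, paired with RXR, switch on the genes for export.

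The 3 mature microRNAs of the deleted cluster are shown because each could pair with messages of these genes through its seed, bases 2 to 8 from the 5′ end, given in capitals. The sequences and positions are those of RefSeq on GRCm38.p6, on the plus strand of chromosome 8.
miR-23a-3p (chr8:84208563-84208583): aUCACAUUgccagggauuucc
miR-27a-3p (chr8:84208727-84208747): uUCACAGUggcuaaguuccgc
miR-24-3p (chr8:84208875-84208896): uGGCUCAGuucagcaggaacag

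No seed is shared among the 3. The letters complementary to a seed (AATGTGA for miR-23a, ACTGTGA for miR-27a and CTGAGCC for miR-24, sense strand only) were looked for in the longest annotated 3′ UTR of each gene except Npc1, which was not analysed here, with GENCODE M21 on GRCm38. Of 9 genes, 6 held at least 1 match, against 40.6% of 9220 tested genes with a 3′ UTR. Abca1, Abcg1, Mylip and Lipa held 1 match each, Soat1 3 and Npc2 4, and Apoe, Nr1h3 and Ch25h, whose 3′ UTRs are 271, 275 and 452 bases long, held none. The 3′ UTR of Soat1 (6534 bases) is long beside the median of 1143 bases over tested genes, and those of Abcg1 (3703), Abca1 (3156) and Npc2 (2564) are above it too. A match is a stretch of letters and not a measured site. The matches below are those of the called genes Soat1, Lipa and Mylip, and those of the transporter genes Abca1 and Abcg1, which did not pass between genotypes. The capitals are the letters complementary to the seed, with 14 bases before and 1 after, and an 8mer is a match followed by a.
Abca1, miR-27a, 8mer (chr4:53031477-53031498, minus strand): tggaaaacttactaACTGTGAa
Abcg1, miR-23a (chr17:31117852-31117873, plus strand): taaaggagaatgagAATGTGAc
Mylip, miR-23a (chr13:45410644-45410665, plus strand): gaaaagaaaacaagAATGTGAc
Soat1, miR-24, 8mer (chr1:156430468-156430489, minus strand): tcagggacagcaccCTGAGCCa
Soat1, miR-24 (chr1:156426055-156426076, minus strand): aatgctgttgaccaCTGAGCCg
Soat1, miR-23a (chr1:156424552-156424573, minus strand): ctgcgtatgtgaagAATGTGAt
Lipa, miR-24 (chr19:34492544-34492565, minus strand): tgcacaatgttttaCTGAGCCt

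The same was asked of the LXR element DR4, which is AGGTCA repeated after 4 bases, in RefSeq promoter windows of 250 bases before to 50 bases after each start on GRCm38.p6, on both strands. In the 8 genes with a window (Abcg1 and Npc1 were not analysed here), the closest match was in Abca1, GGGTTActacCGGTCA, with 3 mismatches, between 52 and 67 bases before the start and read on the strand opposite to the gene. A match with at most 3 mismatches stood in 21.9% of 32851 promoter windows, so it is common. The best match had 4 mismatches in 6 of the other genes, a closeness that 76.9% of windows reach.

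The levels of the 10 genes spanned more than the groups did. FPKM are per length of transcript and can be compared between genes. Apoe, the secreted apolipoprotein that accepts exported cholesterol, was the most abundant of the 10 in every group and held rank 6 of all 23863 genes in both M1 groups, rank 3 in wildtype M2 and rank 4 in Mirc11-/- M2. Npc2 stood at 392 to 465 FPKM by group mean and Lipa at 75.6 to 660 FPKM. Mylip was the lowest of the 10 in M1 and Ch25h the lowest in M2. Mylip and Ch25h overlapped in M1, with single libraries between 15.5 and 20.2 FPKM for Mylip and between 14.6 and 29.6 FPKM for Ch25h.

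**Figure D1:**
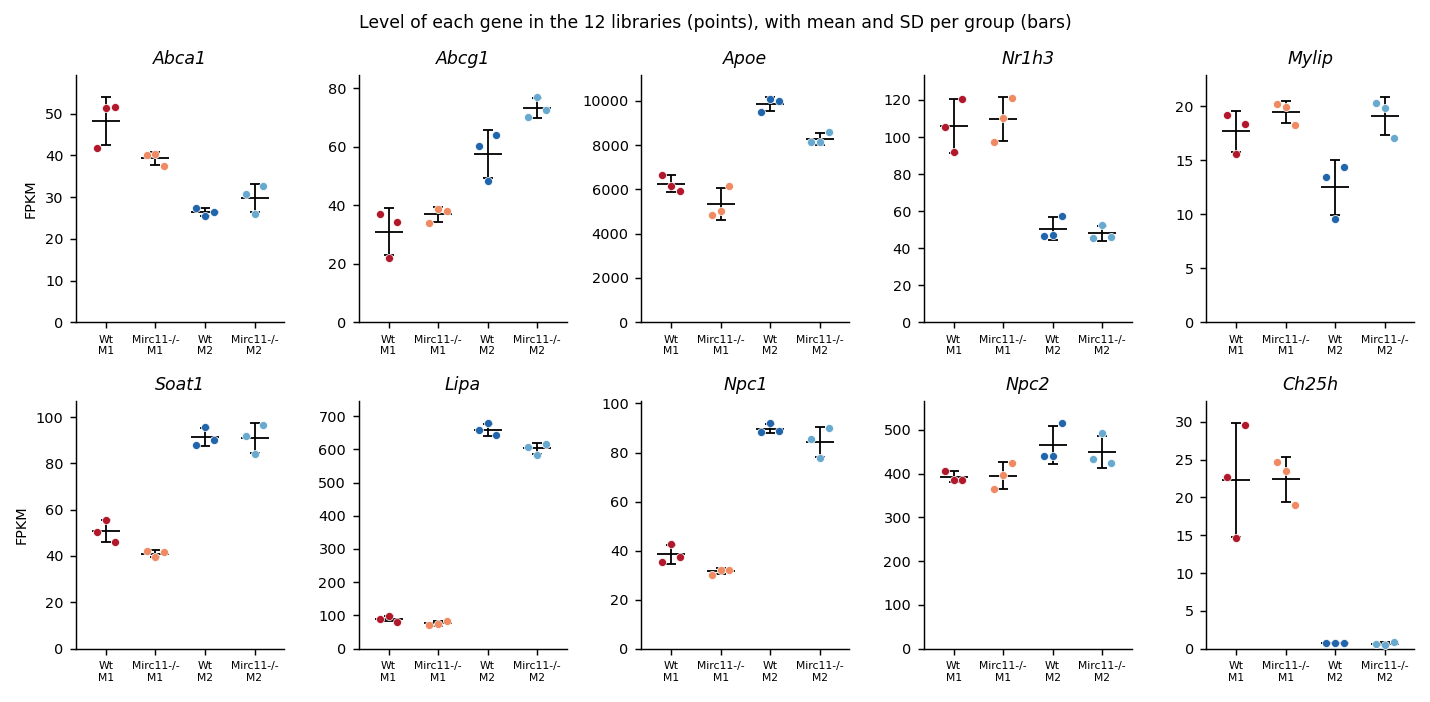
FPKM of each gene in the 12 libraries (points, coloured by group), with the mean (long bar) and SD (whiskers) of the 3 libraries of each group. Each vertical axis starts at 0 and has its own scale. Ch25h was at most 0.838 FPKM in M2 and at least 14.6 FPKM in M1, and Lipa stood above 584 FPKM in M2 and below 97 FPKM in M1.

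The first question was how the polarized states differ in these genes. In wildtype cells the difference passed the test for all 10, with 4 higher and 6 lower in M1 than in M2, beside 78.6% of all tested genes that passed (26.6% higher and 52% lower). In Mirc11-/- cells 8 of 10 passed, 3 higher and 5 lower, beside 80% (26% higher and 54% lower). In both genotypes Abca1, Nr1h3 and Ch25h were higher in M1, whereas Abcg1, Apoe, Soat1, Lipa and Npc1 were lower. Mylip (higher) and Npc2 (lower) passed in wildtype and not in Mirc11-/- cells, and the call of Npc2 was lost with another scaling. Both transporter genes thus passed in opposite directions. Changes are differences in log2(FPKM + 1) ± SE, with p-values from limma adjusted by Benjamini-Hochberg over 10137 genes. Over all tested genes the median change was -0.19 for wildtype and -0.21 for Mirc11-/-, and scaling by the median of ratios brought it to 0.02 for both. That scaling moved the share of higher calls among all calls from 33.8% to 51.6% in wildtype and from 32.5% to 51.7% in Mirc11-/- cells. Among the 10 genes it changed the calls or directions of Npc2 and of no other in these 2 comparisons. The median of the 10 was -0.45 in wildtype and -0.41 in Mirc11-/- cells. Because these are bulk samples, fewer cells of a type and less RNA per cell cannot be told apart.

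Abca1, the transporter that loads cholesterol onto lipid-poor apolipoprotein A-I, stood at 41.7, 51.4 and 51.6 FPKM in the 3 wildtype M1 libraries and at 27.28, 25.35 and 26.38 FPKM in the wildtype M2 libraries. The Mirc11-/- values stood at 40.1, 40.4 and 37.5 FPKM in M1 and at 30.66, 26.05 and 32.73 FPKM in M2. In both genotypes every M1 library was above every M2 library. The difference was 0.84 ± 0.091 (adjusted p = 2.6e-06) in wildtype and 0.39 ± 0.091 (adjusted p = 0.0016) in Mirc11-/- cells.

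Abcg1, the transporter that exports cholesterol to mature high-density lipoprotein, showed the opposite order. It stood at 36.92, 21.93 and 34.15 FPKM in wildtype M1 and at 60.2, 48.2 and 64.0 FPKM in wildtype M2. In Mirc11-/- cells it stood at 33.9, 38.5 and 38.0 FPKM in M1 and at 70.25, 76.95 and 72.58 FPKM in M2. Groups did not overlap in either genotype, and the wildtype M1 library Wt2261M1 was the lowest of the 12. The difference was -0.89 ± 0.16 (adjusted p = 0.00021) in wildtype and -0.97 ± 0.16 (adjusted p = 9.8e-05) in Mirc11-/- cells. The ratio of Abca1 to Abcg1 FPKM within a library was 0.987 to 2.35 in the 6 M1 libraries and 0.339 to 0.526 in the 6 M2 libraries, so Abca1 was the less abundant of the pair in every M2 library and in 1 M1 library.

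Apoe stood at 6669, 6172 and 5935 FPKM in wildtype M1 and at 9493, 10090 and 9981 FPKM in wildtype M2. The Mirc11-/- libraries read 4825, 5029 and 6162 FPKM in M1 and 8127, 8122 and 8581 FPKM in M2. All M2 libraries were above all M1 libraries of either genotype. The difference was -0.66 ± 0.10 (adjusted p = 7.2e-05) in wildtype and -0.64 ± 0.10 (adjusted p = 8.5e-05) in Mirc11-/- cells. With only the 6 libraries on which both label fields agree, which leave wildtype without replicates, the wildtype difference was -0.51.

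Nr1h3 encodes LXR alpha, the oxysterol receptor that is abundant in macrophages. It stood at 105, 91.7 and 121 FPKM in wildtype M1 and at 46.8, 47.3 and 57.5 FPKM in wildtype M2, and at 97.5, 110 and 121 FPKM against 45.4, 52.6 and 45.8 FPKM in Mirc11-/- cells. Every M1 library was above every M2 library. The difference was 1.05 ± 0.11 (adjusted p = 2.7e-06) in wildtype and 1.18 ± 0.11 (adjusted p = 8.9e-07) in Mirc11-/- cells. Its exons share 34 bases with Gm13783 on the same strand, where reads of the 2 genes cannot be told apart.

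Ch25h encodes the enzyme that makes 25-hydroxycholesterol, an oxysterol, and it is a known interferon-induced gene. It stood at 22.7, 14.6 and 29.6 FPKM in wildtype M1 and at 0.723, 0.732 and 0.685 FPKM in wildtype M2. The Mirc11-/- libraries were at 24.7, 23.5 and 19.1 FPKM in M1 and at 0.629, 0.459 and 0.838 FPKM in M2. The groups were far apart, and relative to their mean the 3 wildtype M1 libraries differed more than for any other gene of the 10 in that group, with an SD of 7.51 on a mean of 22.3 FPKM. The ratio of mean FPKM, M1 over M2, was 31.3 in wildtype and 34.9 in Mirc11-/- cells. On the log2(FPKM + 1) scale, which understates the change of a gene this low in M2, the differences were 3.71 ± 0.19 (adjusted p = 2.1e-09) and 3.83 ± 0.19 (adjusted p = 1.5e-09). Its exons share 159 bases with Gm26902 on the other strand, and the strand setting of the counting is not given in the sources used here.

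Mylip, also called IDOL, encodes an LXR-induced ubiquitin ligase that sends the LDL receptor to degradation. It stood at 19.2, 15.5 and 18.4 FPKM in wildtype M1 and at 13.5, 9.57 and 14.4 FPKM in wildtype M2. In Mirc11-/- cells it stood at 20.2, 19.9 and 18.3 FPKM in M1 and at 20.3, 19.9 and 17.1 FPKM in M2. The wildtype groups did not overlap, the Mirc11-/- groups did. The difference was 0.49 ± 0.13 (adjusted p = 0.0035) in wildtype and 0.03 ± 0.13 (adjusted p = 0.85, 95% interval -0.25 to 0.30) in Mirc11-/- cells.

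Soat1 encodes the acyltransferase that esterifies cholesterol for storage in lipid droplets. It stood at 50.2, 55.6 and 46.2 FPKM in wildtype M1 and at 88.1, 95.7 and 89.9 FPKM in wildtype M2, and at 42.0, 39.5 and 41.6 FPKM against 91.7, 83.9 and 96.8 FPKM in Mirc11-/- cells. Groups did not overlap in either genotype. The difference was -0.84 ± 0.071 (adjusted p = 2.7e-07) in wildtype and -1.13 ± 0.071 (adjusted p = 1.6e-08) in Mirc11-/- cells.

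Lipa, the lysosomal acid lipase that hydrolyses cholesterol esters, was of the 10 genes the one furthest below its M2 level in M1. It stood at 90.3, 96.8 and 81.2 FPKM in wildtype M1 and at 658, 679 and 643 FPKM in wildtype M2. The Mirc11-/- values stood at 69.9, 74.3 and 82.5 FPKM in M1 and at 607, 585 and 617 FPKM in M2. The M2 means were higher by a wide margin, with a ratio of M1 to M2 of 0.136 in wildtype and 0.125 in Mirc11-/- cells. The differences were -2.87 ± 0.074 (adjusted p = 4.8e-12) and -2.98 ± 0.074 (adjusted p = 3.3e-12).

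Npc1, the membrane protein that moves cholesterol out of the lysosome, stood at 35.2, 42.8 and 37.5 FPKM in wildtype M1 and at 88.4, 91.9 and 88.8 FPKM in wildtype M2. In Mirc11-/- cells it stood at 30.2, 32.2 and 32.2 FPKM in M1 and at 85.5, 77.7 and 90.0 FPKM in M2. Every M1 library was below every M2 library. The difference was -1.20 ± 0.072 (adjusted p = 9.4e-09) in wildtype and -1.39 ± 0.072 (adjusted p = 2.3e-09) in Mirc11-/- cells. The exons of Npc1 share 511 bases with Rmc1 on the other strand, whose reads cannot be told apart from those of Npc1 if strand was not used.

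Npc2, the soluble lysosomal protein that hands cholesterol to NPC1, differed least. It stood at 407, 386 and 384 FPKM in wildtype M1 and at 440, 440 and 515 FPKM in wildtype M2, and at 364, 396 and 425 FPKM against 434, 492 and 424 FPKM in Mirc11-/- cells. The wildtype groups did not overlap, and the Mirc11-/- groups overlapped by 1 library on each side. The difference was -0.24 ± 0.083 (adjusted p = 0.019) in wildtype and -0.19 ± 0.083 (adjusted p = 0.056) in Mirc11-/- cells. Relative to the median gene it was small, and after median-of-ratios scaling it was -0.0080 (adjusted p = 0.93) in wildtype and 0.083 (adjusted p = 0.38) in Mirc11-/- cells, with the sign of the latter turned. The wildtype call was also lost without Wt2261M1 (adjusted p = 0.051), Wt2262M1 (adjusted p = 0.0502) or Wt2262M2 (adjusted p = 0.089), and the Mirc11-/- difference passed without Ako2273M1 (adjusted p = 0.028), Wt2262M2 (adjusted p = 0.036) or Ako2273M2 (adjusted p = 0.042). With the 6 libraries whose labels agree, which leave wildtype without replicates, the wildtype difference was -0.11 and the Mirc11-/- difference -0.28.

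Over both genotypes, groups of the 2 polarizations did not overlap for 10 of 10 genes in wildtype and 8 of 10 in Mirc11-/- cells, beside 80.8% and 81% of all tested genes. Among markers of other cell types, single genes differed widely between the polarizations. Of 7 neutrophil markers in the table, 2 averaged above 1 FPKM in each M1 group, the sum was 42.2 to 74.7 FPKM in wildtype M1 and 28.4 to 32.2 FPKM in Mirc11-/- M1 but 1.77 to 6.14 and 1.40 to 2.55 FPKM in the M2 groups, and S100a8 made up most of it while Elane, which defines immature neutrophils, was at 0 in both M1 groups. The 6 dendritic cell markers summed to 15.2 to 20.0 and 15.9 to 17.3 FPKM in wildtype and Mirc11-/- M1, mostly Ccr7, against 1.86 to 2.33 and 2.42 to 3.01 FPKM in M2. The 6 T and NK cell markers summed to at most 2.66 FPKM in M1. In M2 they summed to 11.2 to 12.8 FPKM in wildtype and to 6.88 to 9.68 FPKM in Mirc11-/- cells, mostly Cd4. Other genes of these lists were higher in M2, by group mean in wildtype M1 and M2, with S100a9 at 0.048 and 0.80 FPKM, Ltf at 0.0068 and 0.093 FPKM, Ngp at 0.017 and 0.16 FPKM and the dendritic marker Zbtb46 at 0.076 and 1.03 FPKM. The part of these markers in the results was not tested.

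**Figure D2:**
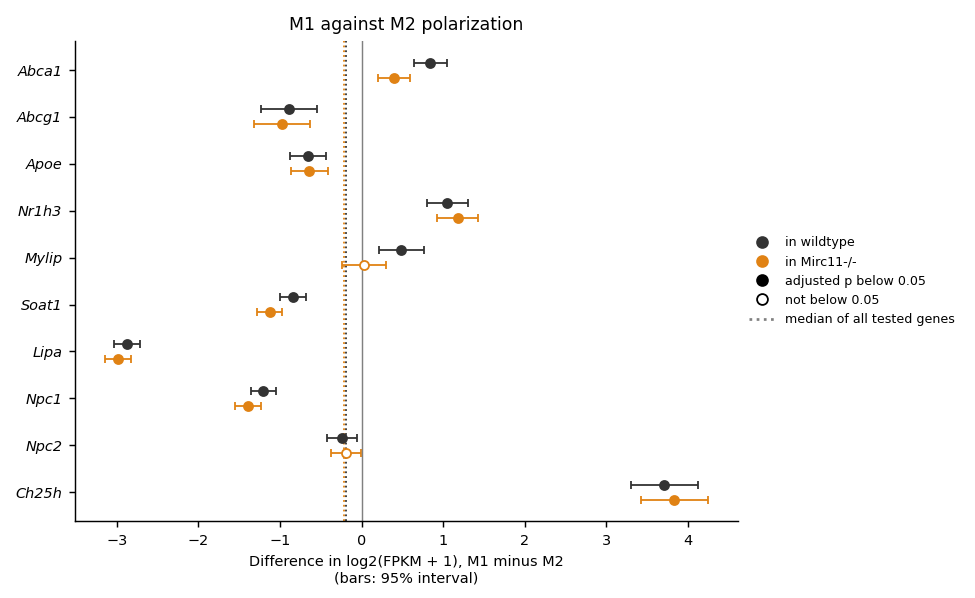
Difference in log2(FPKM + 1) between M1 and M2 (M1 minus M2, horizontal axis) for each gene in wildtype (dark) and Mirc11-/- (orange) cells, with 95% intervals from limma. Filled points passed an adjusted p of 0.05, and dotted lines mark the median of all tested genes. Ch25h (3.71 and 3.83) and Lipa (-2.87 and -2.98) lie at the ends, and only Mylip and Npc2 have an open point, both in Mirc11-/- cells.

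The second question was what the loss of the cluster changes. In M1, 3 of 10 genes passed the test, all lower in Mirc11-/- cells (Soat1, Npc1 and Lipa), beside 13.9% of all tested genes (5.99% higher and 7.96% lower). Groups did not overlap for Abca1, Soat1 and Npc1, beside 31.5% of all genes. In M2, 1 of 10 passed, Mylip, which was higher in Mirc11-/- cells, beside 4.59% of all genes (2.5% higher and 2.09% lower). Groups did not overlap for Abcg1, Apoe, Mylip and Lipa, beside 23.6% of all genes. The median change of the 10 was -0.11 in M1 and -0.06 in M2, and that of all tested genes was -0.02 and 0.00. Median-of-ratios scaling moved the share of higher calls among all calls in M1 from 42.9% to 55.7%. The largest of the called differences was 0.59, against 3.71 between the polarizations in wildtype.

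Abca1 was lower in Mirc11-/- M1, with every one of its 3 libraries (37.5 to 40.4 FPKM) below every wildtype library (41.7 to 51.6 FPKM), but the lowest wildtype library, Wt2260M1 (41.7 FPKM), was near the highest Mirc11-/- library, Ako2272M1 (40.4 FPKM). The difference of -0.28 ± 0.091 did not pass (adjusted p = 0.061). In M2 it was 0.17 ± 0.091 (adjusted p = 0.37) and the groups overlapped. Without Wt2260M1 the difference in M1 passed at -0.38 (adjusted p = 0.016), and it passed without Ako2272M2, a library of another group, as well (adjusted p = 0.035). With only the 6 libraries whose labels agree, which keep Wt2260M1 alone in its group, it was -0.05.

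In M1, Abcg1 averaged 31.0 ± 7.97 FPKM (SD, n = 3) in wildtype, below the 36.8 ± 2.52 FPKM of Mirc11-/- cells, a difference of 0.27 ± 0.16 (adjusted p = 0.30), with overlapping groups. It was 0.049 without Wt2261M1 and 0.41 without Wt2260M1 (adjusted p = 0.85 and 0.13). In M2 the wildtype mean was 57.5 ± 8.25 FPKM and the Mirc11-/- mean 73.3 ± 3.41 FPKM. Those groups did not overlap, but the difference of 0.35 ± 0.16 did not pass (adjusted p = 0.26). Apoe averaged 6259 ± 374 and 5339 ± 720 FPKM in wildtype and Mirc11-/- M1, and 9854 ± 318 and 8277 ± 264 FPKM in M2. It differed by -0.24 ± 0.10 (adjusted p = 0.15) in M1. The difference was about the same, -0.25 ± 0.10, in M2 (adjusted p = 0.21). In M1 the library Ako2273M1 (6162 FPKM) lay among the wildtype values, and without it the difference was -0.34 (adjusted p = 0.032).

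Mylip was the gene of the 10 that passed in M2, with 17.1 to 20.3 FPKM in the Mirc11-/- libraries above the 9.57 to 14.4 FPKM of the wildtype libraries. The difference was 0.59 ± 0.13 (adjusted p = 0.020), a ratio of means of 1.53. In M1 its difference was 0.13 ± 0.13 (adjusted p = 0.54). Wt2261M2 was the lowest M2 library. The call was lost without Ako2271M2 (0.55, adjusted p = 0.086), without Ako2272M2 (0.56, adjusted p = 0.081) and in a fit to only the 2 groups compared (adjusted p = 0.087). With the 6 libraries whose labels agree, which leave wildtype without replicates, the difference in M2 was 0.54.

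Soat1 was lower in Mirc11-/- M1, where the 3 libraries spanned 39.5 to 42.0 FPKM against 46.2 to 55.6 FPKM in wildtype. The difference was -0.29 ± 0.071 (adjusted p = 0.018), a ratio of means of 0.810. In M2 it was -0.01 ± 0.071 (adjusted p = 0.97, 95% interval -0.16 to 0.15). The call in M1 was lost without Wt2261M1, the highest wildtype library (adjusted p = 0.079), and without Ako2272M1, the lowest Mirc11-/- library (adjusted p = 0.081). With the 6 libraries whose labels agree, which leave wildtype without replicates, the difference in M1 was -0.30.

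Npc1 was also lower in Mirc11-/- M1, with 30.2 to 32.2 FPKM against 35.2 to 42.8 FPKM, a difference of -0.28 ± 0.072 (adjusted p = 0.027). In M2 it was -0.09 ± 0.072 (adjusted p = 0.58) and the groups overlapped. The call in M1 was lost without Wt2261M1 (adjusted p = 0.10), Ako2271M1 (adjusted p = 0.088) or Ako2272M1 (adjusted p = 0.064), and in a fit to only the 2 groups compared (adjusted p = 0.068). With the 6 libraries whose labels agree, which leave wildtype without replicates, the difference in M1 was -0.17.

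Lipa averaged 89.4 ± 7.85 FPKM in wildtype M1 and 75.6 ± 6.36 FPKM in Mirc11-/- M1 (SD, n = 3), and the Mirc11-/- library Ako2273M1 (82.5 FPKM) lay above the wildtype library Wt2262M1 (81.2 FPKM). The difference was -0.24 ± 0.074 and stood at the threshold (adjusted p = 0.0499). It failed to pass in 10 of 12 fits with a library left out, with adjusted p up to 0.20, and held only without Wt2262M1 or Ako2273M1, the 2 libraries that overlap. The call was also lost with no filter on low values (adjusted p = 0.080), after median-of-ratios scaling (adjusted p = 0.070) and in a fit to only the 2 groups compared (adjusted p = 0.13). With the 6 libraries whose labels agree, which leave wildtype without replicates, the difference in M1 was -0.32. The difference in M2 was -0.13 ± 0.074 (adjusted p = 0.39), although its groups did not overlap.

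Nr1h3, Npc2 and Ch25h did not pass between genotypes in either state. The differences in M1 were 0.05 ± 0.11 for Nr1h3 (95% interval -0.19 to 0.30), 0.01 ± 0.083 for Npc2 (-0.17 to 0.19) and 0.05 ± 0.19 for Ch25h (-0.36 to 0.47). In M2 they were -0.07 ± 0.11 for Nr1h3, -0.05 ± 0.083 for Npc2 and -0.07 ± 0.19 for Ch25h. All their groups overlapped. Npc2 held 4 seed matches, and Nr1h3 and Ch25h held none. Of the called genes with a 3′ UTR read here, Soat1 and Lipa were lower and Mylip was higher. A link between seed matches and changes was not tested.

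Neutrophil markers differed between genotypes in M1 as given above (42.2 to 74.7 against 28.4 to 32.2 FPKM, with S100a8 leading). The 6 endothelial markers summed to 9.50 to 11.5 FPKM in wildtype M1 and to 13.4 to 15.7 FPKM in Mirc11-/- M1, led by Kdr and Pecam1 in turn and with Emcn at 0 in both, and the 6 fibroblast markers to 0.203 to 0.287 and 0.697 to 1.48 FPKM. In M2 the 5 B cell markers in the table summed to 0.488 to 1.12 FPKM (wildtype) and 1.32 to 1.76 FPKM (Mirc11-/-), mostly Cd79b, with Pax5 at 0 in both. T and NK cell markers summed lower in Mirc11-/- M2 as given above, led by Cd4, whose difference did not pass. These genes were listed as markers of other cell types. Neither the presence of such cells nor the part of these genes in the differences between genotypes was tested.

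**Figure D3:**
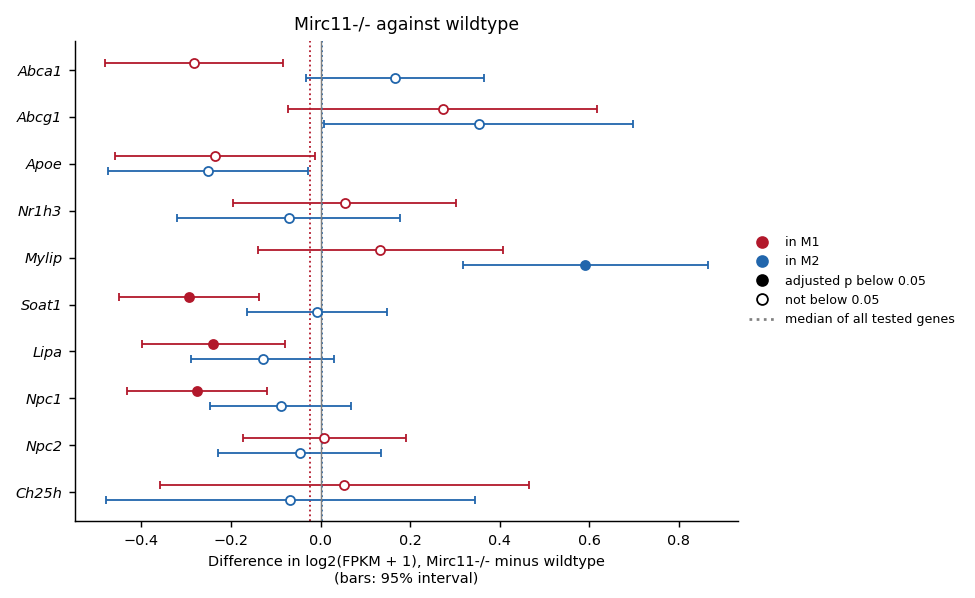
Difference in log2(FPKM + 1) between genotypes (Mirc11-/- minus wildtype, horizontal axis) for each gene in M1 (red) and M2 (blue), with 95% intervals from limma. Filled points passed an adjusted p of 0.05, and dotted lines mark the median of all tested genes (-0.02 in M1 and 0.00 in M2). Soat1, Npc1 and Lipa are filled in M1 between -0.24 and -0.29, and Mylip is filled in M2 at 0.59.

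Whether the effect of genotype differed between the states was tested directly. None of the 10 genes passed, beside 1.85% of all tested genes (0.937% with a higher and 0.917% with a lower effect in M1). At an unadjusted p under 0.05 there were 3 of 10 in limma, beside 14.2% of all genes, and no other tool was run. They were Abca1 (-0.45 ± 0.13, adjusted p = 0.11), Soat1 (-0.29 ± 0.10, adjusted p = 0.20) and Mylip (-0.46 ± 0.18, adjusted p = 0.25). Leaving out Wt2260M1 brought Abca1 past the threshold (-0.55, adjusted p = 0.043), and with the 6 libraries whose labels agree it was -0.10. Calls of Soat1, Npc1 and Lipa in M1 and of Mylip in M2 are therefore not shown to belong to 1 state. Median-of-ratios scaling moved the share of higher calls among all calls of this comparison from 50.5% to 63.1%.

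The 10 genes were set beside 68 others of 7 lists of the same pathway, of which 52 passed the filter on low values. In wildtype, 13 of these 52 were higher and 30 lower in M1 than in M2, with a median of -0.23, and in Mirc11-/- cells 12 were higher and 29 lower, with a median of -0.29, beside 78.6% and 80% of all tested genes that passed in either direction. For genotype, 5 were higher and 10 lower in Mirc11-/- M1 and 4 were higher and 3 lower in Mirc11-/- M2, with medians of -0.02 and 0.01, beside 13.9% and 4.59% of all tested genes. The 16 genes not tested include Apoa1, Lcat, Abcg5 and Abcg8.

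Among the receptors and cofactors of LXR, 7 of 10 (Nr1h3 included) passed between M1 and M2 in each genotype, 3 higher and 4 lower, beside 78.6% and 80% of all tested genes. Rxra, the partner with which LXR binds DNA, had a mean of 7.32 FPKM in wildtype M1, against 23.8 FPKM in wildtype M2 (-1.57 ± 0.083, adjusted p = 3.0e-09), opposite to Nr1h3. Pparg, a lipid-sensing receptor that IL-4 is known to induce, averaged 0.446 and 28.8 FPKM (-4.37 ± 0.098, adjusted p = 1.5e-12). Between genotypes, Rxra was lower in Mirc11-/- M1, with 4.22, 4.83 and 5.60 FPKM against 7.00, 7.75 and 7.22 FPKM in wildtype (-0.51 ± 0.083, adjusted p = 0.0026), and it passed without any one library. In Mirc11-/- cells the difference of Rxra between M1 and M2 was -1.91 (adjusted p = 4.7e-10). Ppard was higher in Mirc11-/- M2 (0.36 ± 0.083, adjusted p = 0.029), a call lost without Wt2261M2, Wt2262M2, Ako2271M2 or Ako2272M2 (adjusted p up to 0.12). That call was also lost with no filter on low values and in a fit to only the 2 groups compared.

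Of the other LXR targets, 9 of 14 were tested. In wildtype 1 was higher in M1 and 6 were lower, beside 26.6% and 52% of all tested genes. Mertk, the receptor for dying cells, was the one higher (1.82 ± 0.076, adjusted p = 3.6e-10), and Arl4c, a small GTPase, fell by 3.46 ± 0.061 (adjusted p = 2.1e-13). Cd5l, a secreted survival factor of macrophages, fell by 3.47 ± 0.16 (adjusted p = 7.1e-10). Cd5l was higher in Mirc11-/- cells in both states, with 6.95, 6.63 and 10.5 FPKM against 2.58, 3.20 and 2.57 FPKM in M1 (1.23 ± 0.16, adjusted p = 0.00048) and 62.5, 71.7 and 82.8 FPKM against 36.1, 39.3 and 48.2 FPKM in M2 (0.80 ± 0.16, adjusted p = 0.014). The libraries did not overlap in either state, and the call in M2 was lost without Wt2260M2, Wt2261M2 or Ako2272M2 (adjusted p up to 0.063). Mertk fell by 0.36 ± 0.076 in Mirc11-/- M1 (adjusted p = 0.0090), a call lost with the 6 libraries whose labels agree, and Smpdl3a, a phosphodiesterase, rose by 0.23 ± 0.058 (adjusted p = 0.023), a call lost without Wt2260M1, Wt2261M1, Ako2272M1 or Ako2273M1 (adjusted p up to 0.094).

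For lipoprotein and sterol uptake, 6 of 8 genes were tested. In wildtype M1, 2 of them were higher and 3 lower, beside 26.6% and 52% of all tested genes. The scavenger receptor genes went both ways. Marco averaged 1710 FPKM in M1, against 65.2 FPKM in M2 (4.69 ± 0.14, adjusted p = 1.7e-11), whereas Cd36 averaged 29.3 and 159 FPKM (-2.40 ± 0.12, adjusted p = 2.3e-09) and Scarb1 14.8 and 36.9 FPKM (-1.26 ± 0.053, adjusted p = 3.9e-10). Marco was higher in Mirc11-/- M2 (0.75 ± 0.14, adjusted p = 0.011), a call lost without Wt2261M2 or Ako2272M2 (adjusted p up to 0.054). A fit to only the 2 groups compared lost the Marco call too. Lrp1, a large endocytic receptor, was lower in Mirc11-/- M1 (-0.42 ± 0.13, adjusted p = 0.044) with overlapping groups. That call failed in 8 of 12 fits on 11 libraries (adjusted p up to 0.13), holding without Wt2260M1, Ako2272M1, Ako2272M2 or Ako2273M2. It was also lost with no filter on low values, after median-of-ratios scaling and in a fit to only the 2 groups compared. In the list of ester storage and hydrolysis, 2 of 7 tested genes were higher and 5 lower in wildtype M1, beside the same shares. Nceh1, a neutral cholesterol ester hydrolase, fell by 2.03 ± 0.10 (adjusted p = 2.4e-09), the droplet coat gene Plin3 by 1.30 ± 0.062 (adjusted p = 1.2e-09) and the lipase cofactor gene Abhd5 by 1.00 ± 0.051 (adjusted p = 2.1e-09). Nceh1 was also lower in Mirc11-/- M1 (-0.39 ± 0.10, adjusted p = 0.030), a call lost without any one wildtype M1 library, Ako2271M1 or Ako2272M1 (adjusted p up to 0.11). With no filter on low values, and in a fit to only the 2 groups compared, it was lost as well.

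For intracellular sterol transport, 14 of 15 genes were tested. In wildtype 3 were higher and 8 lower in M1, beside 26.6% and 52% of all tested genes. Gramd1a, which carries sterol from the plasma membrane to the endoplasmic reticulum, was higher (1.18 ± 0.067, adjusted p = 5.7e-09), while Osbpl11, an oxysterol-binding protein, was lower, with means of 9.23 FPKM in M1 beside 20.9 FPKM in M2 (adjusted p = 3.0e-09), and Lamp1, a lysosomal membrane glycoprotein, fell by 1.15 (adjusted p = 1.8e-08). In Mirc11-/- M1, 3 were higher and 2 lower than in wildtype, beside 5.99% and 7.96% of all tested genes. Scarb2, a lysosomal membrane protein known as LIMP-2, was lower in both states, with 28.8, 28.9 and 30.9 FPKM against 38.4, 39.3 and 37.1 FPKM in M1 (-0.36 ± 0.054, adjusted p = 0.0015) and 32.9, 32.7 and 35.7 FPKM against 40.1, 41.6 and 44.6 FPKM in M2 (-0.31 ± 0.054, adjusted p = 0.0076). Groups did not overlap, and both calls held without any one library, that in M2 not with the 6 libraries whose labels agree. Stard5, a cytosolic sterol carrier, was higher in M1 (0.31 ± 0.052, adjusted p = 0.0027), a call also lost with those 6 libraries. Gramd1a was higher too (0.39 ± 0.067, adjusted p = 0.0032). Gramd1b was lower (-0.37 ± 0.072, adjusted p = 0.0057), a call beyond the 3 named by rule for this comparison and not checked with libraries left out. Lamp2, named after its values were seen, was higher (0.19 ± 0.051, adjusted p = 0.031).

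All 4 tested genes of the 7 in the oxysterol list passed between M1 and M2 in wildtype, 1 higher and 3 lower, beside 78.6% of all tested genes (26.6% higher and 52% lower). Gpr183, a receptor for an oxysterol made from 25-hydroxycholesterol, averaged 0.122 FPKM in M1, against 8.75 FPKM in M2 (-3.12 ± 0.063, adjusted p = 7.3e-13). Cyp27a1, which makes 27-hydroxycholesterol, fell by 2.68 ± 0.083 (adjusted p = 2.3e-11). Both thus moved opposite to Ch25h. Hsd3b7, an enzyme of oxysterol breakdown, rose by 0.22 (adjusted p = 0.026) in Mirc11-/- M2, a call lost without any one wildtype M2 library, Ako2271M2 or Ako2272M2 (adjusted p up to 0.095). A fit to only the 2 groups compared lost it too.

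Of 8 other exporters and acceptors, 3 were tested. Abca7, a relative of Abca1, was higher in wildtype M1 by 0.47 ± 0.065 (adjusted p = 2.8e-05), Abcb4, a phospholipid transporter, fell by 0.43 ± 0.092 (adjusted p = 0.00094) and Cav1, the caveolar coat protein, was higher by 1.39 ± 0.12 (adjusted p = 2.6e-07). In Mirc11-/- M1, Cav1 stood at 5.80, 5.87 and 4.95 FPKM against 12.2, 14.7 and 9.39 FPKM in wildtype (-0.99 ± 0.12, adjusted p = 0.00034), and Abcb4 at 1.40, 1.01 and 1.06 FPKM against 2.32, 2.76 and 2.22 FPKM (-0.67 ± 0.092, adjusted p = 0.00082). The groups did not overlap for either gene, and both calls held without any one library, that of Abcb4 not with the 6 libraries whose labels agree. In M2, Cav1 fell by 0.46 (adjusted p = 0.047), a call that failed in 9 of 12 fits on 11 libraries (adjusted p up to 0.16), holding without Wt2261M1, Wt2262M1 or Ako2273M1. This call in M2 was also lost with no filter on low values and after median-of-ratios scaling. Cav1 is also an endothelial gene. Of the 3 endothelial markers tested in M1, Pecam1 was higher in Mirc11-/- cells (0.74, adjusted p = 0.0014), while Kdr (0.20, adjusted p = 0.39) and Vwf (-0.26, adjusted p = 0.21) did not pass, and their part in the value of Cav1 was not tested.

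**Figure D4:**
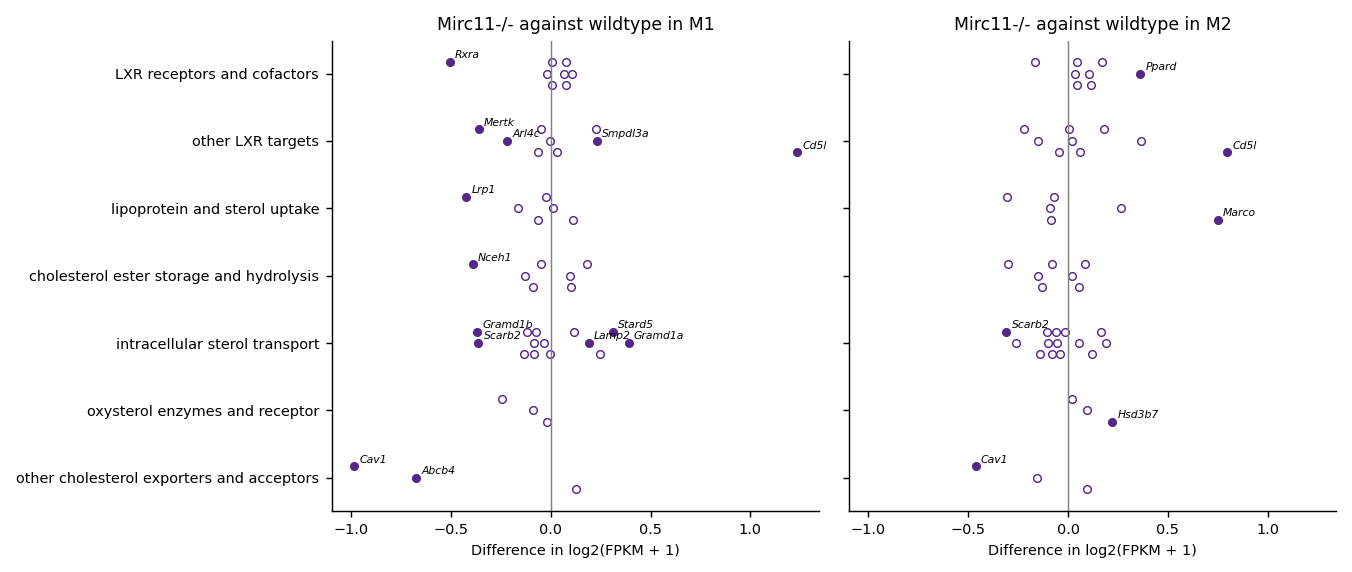
Difference in log2(FPKM + 1) between genotypes (Mirc11-/- minus wildtype, horizontal axes) in M1 (left) and M2 (right) for tested genes of the 7 lists, without the 10 genes of the report and 2 genes that are not reported here. Filled points with a name passed an adjusted p of 0.05. Cd5l lies farthest to the right in both states (1.23 and 0.80) and Cav1 farthest to the left in both (-0.99 and -0.46).

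The genes whose pattern over the 4 groups was nearest to a member were found by the Euclidean distance between the centred group means of log2(FPKM + 1) over 12 libraries. For Abca1 they were Mgst2, Atrnl1 and 2310022B05Rik, at distances of 0.040 to 0.065 beside a median of 0.93 over tested genes. Mgst2 averaged 3.57 and 2.68 FPKM in wildtype and Mirc11-/- M1 and 1.55 and 1.76 FPKM in M2, so it shares the order of groups at a lower level. For Apoe they were Gabarapl1, Snhg5 and Mblac2 (0.029 to 0.048, median 0.65), with Gabarapl1 at 46.9, 39.6, 76.5 and 63.3 FPKM in wildtype M1, Mirc11-/- M1, wildtype M2 and Mirc11-/- M2. For Ch25h they were Nfkbiz, Igtp and Gipr (0.068 to 0.16, median 3.98), with Nfkbiz at 55.0, 59.5, 3.28 and 3.32 FPKM in the same order. These genes were picked for their likeness, so it is a description and no test.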

How the data were processed

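RNA of 12 macrophage libraries was sequenced, and the authors deposited FPKM per gene. The submitters' processing notes name STAR 2.5.1, Cufflinks and mm9, while annotation, filters and strand setting are not given in the sources used here. The authors also deposited tables of log2 fold changes and adjusted p-values, which were not used.

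Genes with a mean of at least 1 FPKM over 12 libraries (10137) were tested on log2(FPKM + 1), so folds of low genes are understated. The 4 group means were estimated together from the 12 libraries in limma 3.58.1 (R 4.3.3, moderated variances with intensity trend, two-sided), with Benjamini-Hochberg adjustment within each of 5 comparisons at a threshold of 0.05. The pipeline was tested on simulated data. Depth is known only relatively, from steps between low FPKM values, so no counting intervals are given. Alternatives were a pseudocount of 0.1, no filter, median-of-ratios scaling, fits to 2 groups, grouping by the treatment field, the 6 libraries with agreeing labels, each library left out and the title number as a block. For the pathway lists these were added after seeing the data.

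The genes and lists were chosen with earlier results of these data known. Of each list, up to 3 genes per comparison with the smallest adjusted p were named. The 3 nearest genes to Abca1, Apoe and Ch25h, the markers Nos2 and Mrc1 and the deleted genes were named too. Npc1 was left out of all sequence work. Some listed genes enter the counts but are not reported here by name.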

Additional observations from a re-analysis of the deposited data

Results flagged for a closer look

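For 6 of 52 tested genes of the pathway lists, beside 1.85% of all tested genes, the effect of genotype (Mirc11-/- minus wildtype, log2 scale) differed between M1 and M2 by a test of the difference itself (limma, adjusted over all tested genes), and none of the 10 genes described above did. Stard5 changed by 0.31 in M1 and -0.08 in M2, a difference of 0.39 ± 0.073 (adjusted p = 0.020). Smpdl3a changed by 0.23 and -0.22, a difference of 0.45 ± 0.082 (adjusted p = 0.019). Gramd1a changed by 0.39 and -0.06, a difference of 0.45 ± 0.095 (adjusted p = 0.034), and its relative Gramd1b by -0.37 and 0.12, a difference of -0.49 ± 0.10 (adjusted p = 0.032). Arl4c changed by -0.22 and 0.18, a difference of -0.40 ± 0.086 (adjusted p = 0.038). Hsd3b7 changed by -0.09 and 0.22, a difference of -0.31 ± 0.070 (adjusted p = 0.046).

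With a library left out, the call on Smpdl3a was lost in 1 of 12 fits (without Ako2272M1), that on Stard5 in 2 (without Ako2271M1 or Wt2260M2), that on Gramd1b in 8, on Arl4c in 9, and on Gramd1a and Hsd3b7 in 10, with adjusted p up to 0.12. With the title number as a block, none of the 6 passed, nor did any in a fit to the 6 libraries with agreeing labels. Calls on Arl4c, Gramd1a and Gramd1b were also lost with no filter on low values, those on Arl4c, Gramd1b and Hsd3b7 after median-of-ratios scaling, and that on Hsd3b7 with a pseudocount of 0.1.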

How the results depend on the processing

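Counts are of the 10 genes, with those over all tested genes in brackets. Fitting only the 2 groups compared left 1 call (869 against 1414) of 3 for genotype in M1 and 0 (273 against 465) of 1 in M2. With the 6 libraries whose labels agree, the count in M1 was 0 (457), all genes gave 117 in M2 and 58 against 188 for the difference between the states. Grouping by the treatment field gave 0 calls in each of the 5 comparisons (2 for genotype in each state, 0 against 7970 and 8106 for polarization, and 0 for the difference), since it mixes libraries with M1 and M2 marker levels. With 1 library left out, counts ran from 0 to 4 (753 to 1516) for genotype in M1, 0 to 1 (201 to 480) in M2, 9 to 10 (7665 to 8073) and 8 to 9 (7723 to 8112) for polarization in wildtype and Mirc11-/- cells, and 0 to 1 (79 to 292) for the difference. A pseudocount of 0.1 changed no call of the 10 genes. The title number as a replicate block changed none either (3, 1, 10, 8 and 0 calls), and gave 1409, 468 and 151 calls over all genes for genotype in M1, in M2 and for the difference. Deviations of libraries with 1 number in M1 and M2 correlated at -0.29 to 0.21, and some but not all libraries correlated best with their own number. Being deviations from means of few libraries, they cannot tell whether libraries of 1 number share an animal or a culture.

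Signs that turned, as log2 differences, were as follows. Grouped by the treatment field, M1 minus M2 in wildtype was -0.45 for Abca1, 0.43 for Abcg1, 0.32 for Apoe, -0.28 for Nr1h3, -0.17 for Mylip, 0.31 for Soat1, 0.97 for Lipa, 0.33 for Npc1, 0.17 for Npc2 and -1.19 for Ch25h, and -0.033 for Mylip in Mirc11-/- cells. The effect of genotype was then 0.30 for Abca1, -0.085 for Abcg1 and -0.20 for Npc2 in M1, and -0.41 for Abca1, 0.075 for Apoe, 0.17 for Soat1, 0.83 for Lipa, 0.19 for Npc1 and 0.16 for Npc2 in M2. The difference between the states was then 0.71 for Abca1, -0.64 for Apoe, 0.13 for Mylip and -0.35 for Npc2. With the 6 libraries whose labels agree, the effect in M1 was -0.029 for Abcg1, -0.019 for Nr1h3 and -0.098 for Npc2, that in M2 0.061 for Nr1h3 and 0.069 for Npc2, the difference -0.21 for Apoe, -0.080 for Nr1h3 and -0.17 for Npc2, and M1 minus M2 in Mirc11-/- cells -0.0046 for Mylip. After median-of-ratios scaling Npc2 was at 0.083 in Mirc11-/- cells (M1 minus M2). By the treatment field, wildtype M1 held Wt2261M2 and Wt2262M2 beside Wt2260M1, so the wildtype signs between polarizations turned with the exchanged libraries. The cause of the other changes of sign was not tested.

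With 1 library left out, 12 results changed sign in at least 1 fit, none of them called with all libraries. For the difference between the states, Abcg1 ran from -0.30 to 0.059, Apoe from -0.092 to 0.084, Ch25h from -0.14 to 0.34 and Npc2 from -0.021 to 0.12. For genotype in M1, Ch25h ran from -0.21 to 0.28, Npc2 from -0.045 to 0.065 and Nr1h3 from -0.044 to 0.15. For genotype in M2, Ch25h ran from -0.15 to 0.014, Npc2 from -0.11 to 0.029, Nr1h3 from -0.14 to 0.024 and Soat1 from -0.055 to 0.047. M1 minus M2 of Mylip in Mirc11-/- cells ran from -0.047 to 0.072. Of 940 values of the 10 genes under all alternatives, 834 kept direction and side of the threshold. A call was lost in 43 and gained in 8, and 55 changed sign. Grouping by the treatment field gave 12 of the lost calls and 24 of the changes of sign. The 6 libraries with agreeing labels gave 9 more changes of sign. With 3 libraries a group and unknown absolute depth, each call between genotypes among the 10 genes was lost in at least 1 fit with a library left out.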
